A study of Mus musculus with 10 samples.

Results

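DNA replication licensing is the step in which a cell marks its chromosomes for replication once per cycle. In late mitosis and G1 phase, CDC6 and CDT1 join the origin recognition complex and load a ring of MCM2, MCM3, MCM4, MCM5, MCM6 and MCM7, the replicative helicase in its inactive form, onto DNA. At the start of S phase, CDC45 and the GINS complex turn the loaded ring into an active helicase, and MCM10 helps it to unwind DNA, while geminin holds CDT1 back so that no origin is loaded again. Many of these genes are known targets of E2F factors in G1/S phase, and mouse embryonic stem cells (ESCs), which have a short G1 phase, are known for high levels of MCM proteins.

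The 10 genes *Cdc6*, *Cdt1*, *Mcm2* to *Mcm7*, *Mcm10* and *Cdc45* were taken as a set by their symbols, out of 18193 genes measured. Their 28 probe sets are those to which the annotation of the Affymetrix mouse whole-genome array gives only 1 of these symbols, and all 10 genes had at least 1. *Max*-null ESCs are male 129SV mouse ESCs in which both endogenous copies of *Max*, which encodes the partner of MYC proteins, are disrupted. All arrays, the untreated ones included, are of these cells, which live on a *Max* cDNA in the ROSA26 locus under a tetracycline-off system, so that doxycycline (Dox), at 1 µg/ml, stops its expression. Of 10 arrays, 8 were of cells in conventional medium with leukaemia inhibitory factor (LIF) and serum, and 2 of cells in 2i+LIF, which holds inhibitors of MEK and GSK3β. The medium of the 8 is that given in the paper, since the growth text of their labels names both LIF with serum and a 2i/Nam condition without saying which array had which. In LIF+serum the first set comprised Dox 1, 2, 3 and 4 d with their untreated reference, and the second set Dox 6 and 8 d with a reference of their own. In 2i+LIF, 1 array was of cells kept in 2i for 6 d without Dox and 1 of cells with Dox for 6 d. There was 1 array per Dox time, and no source used here gives separate cultures for the 2 untreated LIF+serum arrays. The spread behind every p-value is therefore that between arrays, and may be technical. RNA per cell and the share of cells in S phase cannot be told apart in such bulk samples.

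Values are log2 levels after robust multi-array analysis (RMA). A gene was read from its brightest probe set, and changes were taken from the untreated array that the labels name as its reference. The test was a slope per day of Dox over the 8 LIF+serum arrays, fitted to all 45037 probe sets with limma with the array set as a covariate. Array medians ran from 5.26 to 5.33 in LIF+serum and were 5.14 and 5.16 in 2i+LIF. The 3′ probe set of beta-actin exceeded the 5′ one by 0.41 to 0.56 (log2) in the first set and by 0.88 to 1.46 in the second, with 0.76 and 0.78 in 2i+LIF. The untreated arrays of LIF+serum correlated at r = 0.965 across probe sets, and over all pairs of arrays r ran from 0.916 to 0.991. The probe set of *Max* was 0.773-fold the untreated level at 4 d and 1.37-fold at 8 d. No source used here says whether its probes match the cDNA, so it does not check the labels. Markers of pluripotent cells were high throughout, with a median log2 level over 8 genes of 11.47 to 12.62 in LIF+serum and of 12.38 and 12.57 in 2i+LIF. The median over 10 fibroblast genes was 4.27 to 5.21 in LIF+serum, and that over 6 primitive endoderm genes 4.72 to 5.63.

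Transcripts of the loading factors *Cdc6* and *Cdt1* and of the firing factor *Mcm10* fell in LIF+serum, whereas none of the 6 genes of the helicase ring, nor *Cdc45*, passed the test. So 3 of 10 genes were called lower, against 5.33% of all genes and 9.79% of the 5280 genes with a mean log2 level of at least 8. None was called higher in limma (1 of 10, *Cdc45*, at an unadjusted p under 0.05), against 5.75% of all genes and 5.93% of the brighter ones. Of the 28 probe sets, 5 were called lower and 0 higher.

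*Cdc6* encodes the ATPase that, with CDT1, opens and loads the MCM ring. In the first set its log2 level was 10.54 untreated and 9.88, 9.93, 9.67 and 9.56 after 1, 2, 3 and 4 d. In the second set it was 9.79 untreated and 8.85 and 9.01 after 6 and 8 d. Every Dox array lay below the untreated array of its set, but the untreated arrays differed by 0.75, so that the second lay within the range of 1 to 4 d. Relative to the untreated array of its set, *Cdc6* stood at 0.633-fold on the 1 d array, 0.507-fold on that of 4 d, 0.524-fold on that of 6 d and 0.583-fold on that of 8 d. It fell by 0.13 log2 units per day (standard error 0.03), with an adjusted p of 0.0376 in limma. This call was lost when the 1, 2, 3, 4 or 6 d array or the second untreated array was left out, with adjusted p from 0.0508 to 0.33.

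*Cdt1* encodes the factor that brings the MCM ring to CDC6 and is destroyed in S phase. On its brightest probe set the log2 level was 12.46 untreated and 12.22, 12.22, 12.11 and 11.95 after 1, 2, 3 and 4 d in the first set. It was 12.19 untreated and 11.21 and 11.31 after 6 and 8 d in the second. Arrays at 6 and 8 d stood below all others, and those at 1 to 4 d overlapped the second untreated array. Its fold went from 0.842 on the 1 d array to 0.702 on that of 4 d, and was 0.508 and 0.543 on those of 6 and 8 d. The fall was 0.12 per day in log2 units (slope -0.12, standard error 0.03), and limma gave an adjusted p of 0.0232. A second probe set of *Cdt1* fell too (slope -0.16 with a standard error of 0.03, adjusted p = 0.013 in limma). The third had a mean log2 level of 2.46, near the bottom of the scale, and did not pass (adjusted p = 0.477).

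*Mcm10*, which encodes a replisome factor and is no subunit of the ring in spite of its name, had the steepest slope of the 10. Log2 levels of the first set were 10.28 untreated and 10.04, 10.19, 9.86 and 9.68 after 1, 2, 3 and 4 d. Those of the second were 10.25 untreated and 9.21 and 9.08 after 6 and 8 d. All 6 Dox arrays lay below both untreated arrays, which differed by 0.03. Its fold was 0.660 on the 4 d array and 0.488 and 0.446 on those of 6 and 8 d. The daily slope was -0.15 (standard error 0.03), for which limma gave an adjusted p of 0.0101. A second probe set fell by 0.18 per day (standard error 0.02, adjusted p = 0.0043), although its second untreated array, at 5.88, stood far below the first, at 7.55. The third had a slope of -0.09 (adjusted p = 0.102).

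**Figure D1:**
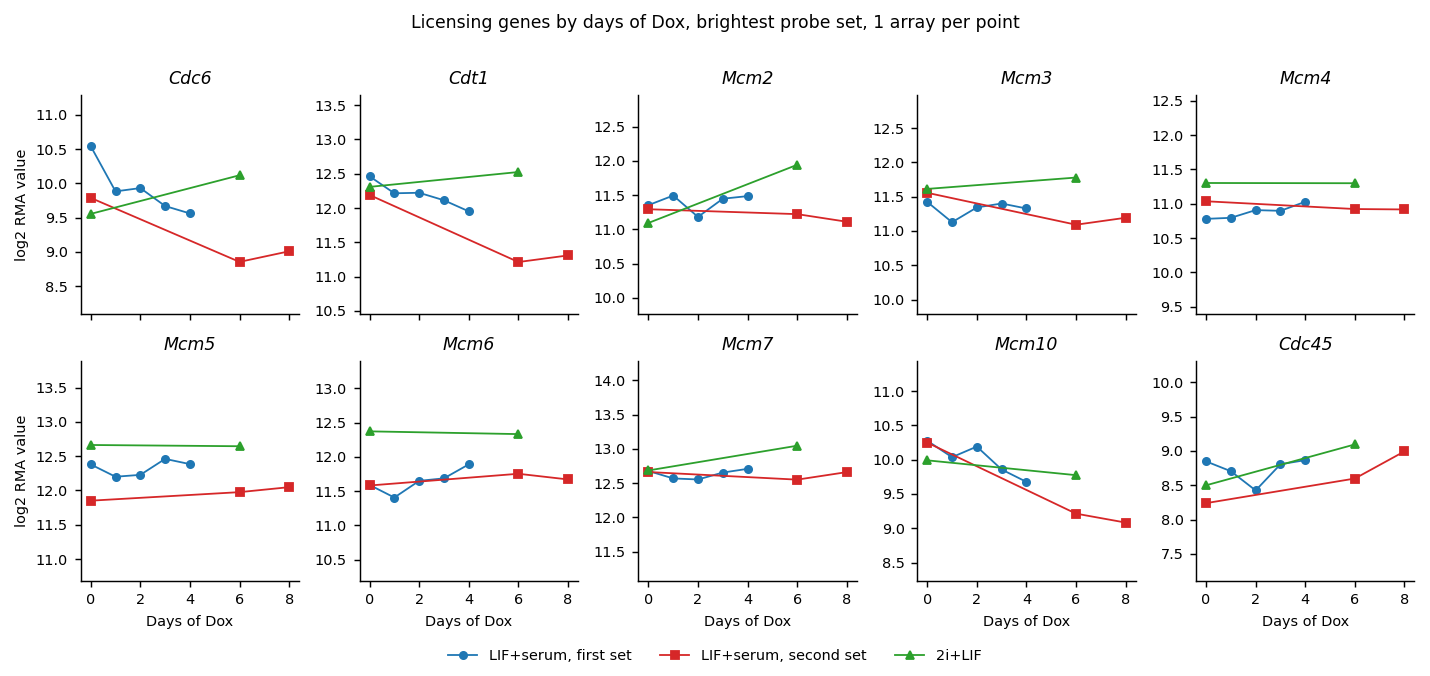
Log2 RMA values (vertical axes, each spanning the same range) of the brightest probe set of each licensing gene against days of Dox (horizontal axes), 1 array per point. Lines join the arrays of the first LIF+serum set (blue circles), the second LIF+serum set (red squares) and 2i+LIF (green triangles). *Cdc6*, *Cdt1* and *Mcm10* go down in both LIF+serum sets, to 8.85, 11.21 and 9.21 at 6 d, while in 2i+LIF *Cdc6* goes from 9.55 to 10.12.

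Within the first set alone the slopes of *Cdc6*, *Cdt1* and *Mcm10* were -0.22, -0.11 and -0.14 per day, and within the second set alone -0.11, -0.12 and -0.15. The direction was the same in each, and limma called *Mcm10* alone in the second set (adjusted p = 0.046) and none of the 3 in the first. In the second set the 3′ excess of beta-actin rose with Dox too, from 0.88 untreated to 1.46 at 6 d and 1.22 at 8 d, and its part in these values was not tested. In the first set that excess was 0.41 untreated and 0.52 to 0.56 on the Dox arrays, so it was higher with Dox in both sets. That of Gapdh lay between -0.12 and 0.12 on all 10 arrays. Without the second untreated array 0 of the 10 genes were called (2 lower at an unadjusted p under 0.05), as were 0 of all 18193 genes, and without the 4 d array only *Mcm10* was.

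On their brightest probe sets, the 6 genes of the helicase ring stood between 0.815-fold and 1.23-fold the untreated level at 1 to 4 d, and between 0.724-fold and 1.15-fold at 6 and 8 d. At 4 d *Mcm6* was the highest, at 1.23-fold, followed by *Mcm4* at 1.19-fold, and *Mcm3* the lowest, at 0.936-fold. At 6 d the lowest of the 6 was again *Mcm3*, at 0.724-fold, and at 8 d it was 0.777-fold. Its other 4 probe sets lay lower at 6 d, between 0.625-fold and 0.683-fold, and 3 of them were past 1.5-fold.

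None of the 6 passed the test (adjusted p from 0.442 for *Mcm3* to 0.999 for *Mcm7* in limma, with 0 at an unadjusted p under 0.05). The 95% intervals of their slopes run from -0.10 for the lower end of *Mcm3* to 0.09 for the upper end of *Mcm6*, in log2 units per day. The slopes of *Cdc6*, *Cdt1* and *Mcm10* lie below each of these intervals, which hold slopes closer to 0 in either direction. Their own intervals, however, end at -0.06, -0.06 and -0.09, and so overlap that of *Mcm3*. Among the dimmer probe sets, the interval of the third of *Mcm5* reaches -0.15. Differences in slope between genes were not tested. All 5 probe sets of *Mcm3* had slopes from -0.06 to -0.04, and none passed (adjusted p from 0.255 to 0.442).

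*Mcm2*, whose product carries parental histones at the fork, had log2 levels from 11.11 to 11.49 over the LIF+serum arrays, the lowest at 8 d. Those of *Mcm4* ran from 10.78, on the first untreated array, to 11.04, on the second. *Mcm5* stood at 12.38 and 11.85 on the untreated arrays, a gap wider than any of its changes with Dox. *Mcm6* ran from 11.41 at 1 d to 11.89 at 4 d, with 11.59 and 11.58 on the untreated arrays. The brightest probe set of *Mcm7* ran from 12.55 to 12.71, the narrowest range among the members.

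Probe sets of a gene did not always give like values. The fourth probe set of *Mcm3* held 0.273 times the level on the second untreated array that it held on the first, where the brightest one held 1.10 times. The second and the third of *Mcm10* held 0.315 and 0.486 times, where its brightest one held 0.981 times. The third of *Mcm5* had a slope of -0.08 (adjusted p = 0.146), against 0.02 for the brightest. No source used here gives the part of each transcript that these probe sets read.

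*Cdc45* encodes the helicase subunit that joins MCM2-7 when an origin fires. Its log2 levels were 8.85 untreated and 8.70, 8.42, 8.81 and 8.87 after 1, 2, 3 and 4 d in the first set, and 8.24 untreated and 8.60 and 8.99 after 6 and 8 d in the second. The untreated arrays were 0.61 apart, close to the whole range of the Dox arrays, and groups overlapped. Over the untreated array of its set it stood at 1.01-fold on the 4 d array and at 1.28-fold and 1.69-fold on those of 6 and 8 d. Over the first untreated array these last arrays were 0.841-fold and 1.11-fold. Its slope of 0.07 (standard error 0.03) did not pass in limma (adjusted p = 0.207). A second probe set, with a mean log2 level of 5.82, was 1.32-fold and 1.185-fold on the 6 and 8 d arrays. It did not pass either (slope 0.03, adjusted p = 0.583 in limma).

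**Figure D2:**
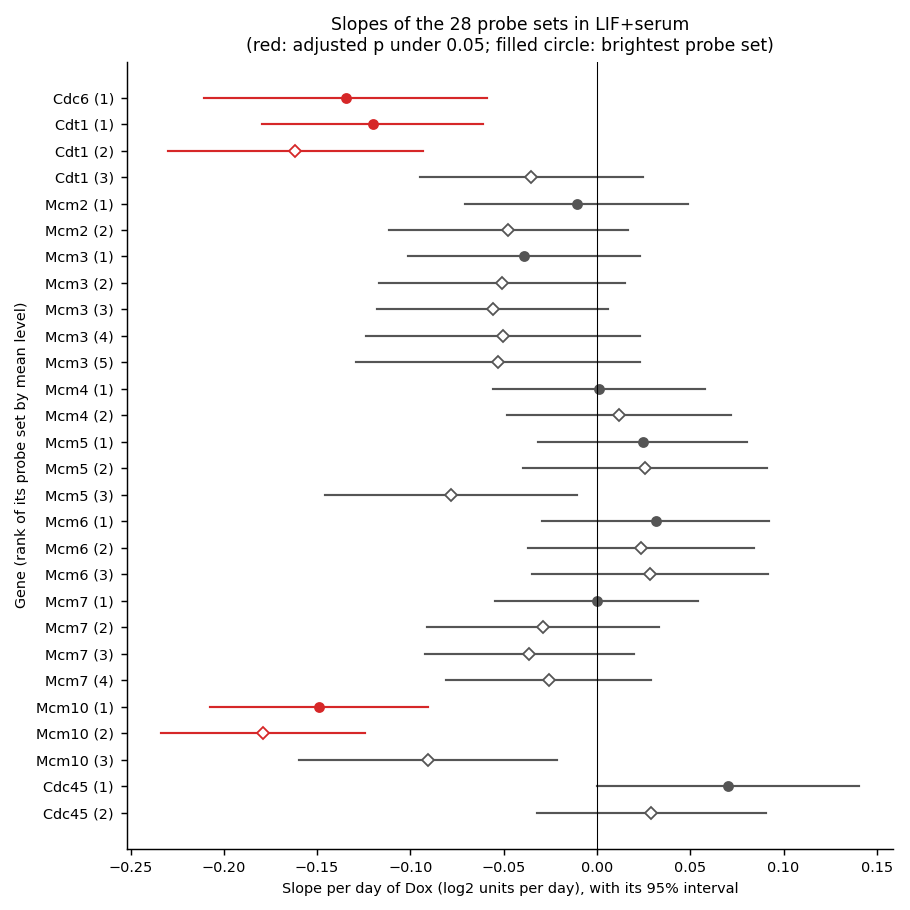
Slope per day of Dox in LIF+serum (horizontal axis, log2 units per day) of each of the 28 probe sets, ordered by gene and, within a gene, by mean level (rank in brackets). Lines are 95% intervals, filled circles the brightest probe set of a gene, open diamonds its others, and red marks an adjusted p under 0.05 in limma. The 5 red ones belong to *Cdc6*, *Cdt1* and *Mcm10*, with slopes from -0.18 to -0.12.

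Sequences just upstream of the annotated starts are shown for 4 members, a pair that fell (*Cdt1* and *Mcm10*) and a pair that did not (*Mcm5* and *Mcm6*), to set their E2F letters side by side. They are from RefSeq on build GRCm38.p6, each 5′ to 3′ on the strand of the gene. Capitals mark the letters TTTCGCGC and TTTGGCGC, searched on both strands as E2F letters. The pair can overlap on opposite strands. The *Mcm5* stretch stops where the annotated gene begins, and the match of *Cdt1* lies after its start and so outside the stretch shown. *Mcm5* and *Mcm6* hold the most matches of the members with a window. *Mcm2* and *Cdc45*, which were not called either, hold none and are not shown. A link between these letters and the slopes was not tested.

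*Cdt1*, chr8:122567855-122568014, plus strand: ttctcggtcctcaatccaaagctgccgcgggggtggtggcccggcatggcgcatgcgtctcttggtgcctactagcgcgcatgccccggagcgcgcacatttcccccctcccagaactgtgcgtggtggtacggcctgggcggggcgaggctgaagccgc
*Mcm10*, chr2:5012792-5012951, minus strand: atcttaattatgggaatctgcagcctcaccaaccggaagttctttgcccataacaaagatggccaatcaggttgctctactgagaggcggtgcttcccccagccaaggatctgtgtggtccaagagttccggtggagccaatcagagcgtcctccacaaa
*Mcm5*, chr8:75109349-75109467, plus strand: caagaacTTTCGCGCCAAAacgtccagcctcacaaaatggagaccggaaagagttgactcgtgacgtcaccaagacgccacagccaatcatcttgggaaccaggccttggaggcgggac
*Mcm6*, chr1:128359706-128359865, minus strand: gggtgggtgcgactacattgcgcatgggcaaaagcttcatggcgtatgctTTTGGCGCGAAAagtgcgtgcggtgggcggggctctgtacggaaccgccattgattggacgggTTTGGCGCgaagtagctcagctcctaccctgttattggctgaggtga

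RefSeq windows of 300 bases, from 250 before to 50 after a start, were given for 9 of the 10 genes (10 windows, with 2 for *Mcm7* and none for *Mcm4*). The E2F letters were found in those of 5 genes, *Mcm3*, *Mcm5*, *Mcm6*, *Mcm7* and *Cdt1*, and in 0.929% of the 27025 symbols with a window. *Mcm6* held 3 matches, 110, 106 and 47 bases before its start, of which the first and second overlap. *Mcm5* held an overlapping pair 153 and 149 bases before its start. Those of *Mcm3*, *Mcm7* and *Cdt1* lay 38, 16 and 32 bases after the start. Thus 1 of the 3 genes that fell, *Cdt1*, and 4 others held these letters. The start used for the *Mcm7* window with the match lies 228 bases inside the annotated gene, and that of its other window 845. That other window and those of *Cdc6*, *Mcm2*, *Mcm10* and *Cdc45* hold no match. The window of *Cdc6* lies inside the annotated gene, past its first start. The E-box letters CACGTG, which read the same on both strands and which MYC and MAX are known to bind, were in 0 of the 9 and in 8.09% of all symbols. A match of letters is a description of these windows, not a site.

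In 2i+LIF both loading factors stood above the untreated level. After 6 d of Dox *Cdc6* was 1.48-fold and *Cdt1* 1.16-fold the untreated level there, against 0.524-fold and 0.508-fold after 6 d in LIF+serum. *Mcm10* was 0.861-fold on its brightest probe set, against 0.488-fold, but its dimmer ones were 1.058-fold and 1.047-fold in 2i+LIF. *Mcm2* stood at 1.80-fold in 2i+LIF, from a log2 level of 11.09 to 11.94, above every LIF+serum array. Its second probe set went from 11.68 to 12.23. *Cdc45* was 1.51-fold, *Mcm7* 1.28-fold and *Mcm3* 1.12-fold, and *Mcm4*, *Mcm5* and *Mcm6* lay between 0.973-fold and 0.998-fold. The second, dimmer probe set of *Cdc45* was 0.982-fold. With 1 array per group in 2i+LIF there is no replicate check and no p-value, and the difference between media was not tested. The 6 d changes in the 2 media had opposite signs for 7 of the 10 genes, against 46.5% of all genes and 44.5% of the brighter ones. Several of the 7 lay near 0 in one medium.

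Counted past 1.5-fold, 0 of the 10 genes were lower and 2 (*Mcm2* and *Cdc45*) higher in 2i+LIF, where 7.47% of all genes were lower and 6.66% higher (8.88% and 8.18% of the brighter genes). At 6 d in LIF+serum 3 of 10 were lower (*Cdc6*, *Cdt1* and *Mcm10*) and 0 higher, against 15.3% and 13.3% of all genes and 22.2% and 13.6% of the brighter ones. With the mean of a gene's probe sets the count lower at 6 d was 4, as *Mcm3* was then 0.666-fold, just past the threshold. With that mean *Cdc45* stood at 1.22-fold at 6 d in 2i+LIF and 1.41-fold at 8 d in LIF+serum, short of 1.5-fold. At 8 d the same 3 genes were lower and *Cdc45* was higher, where 14.0% of all genes were lower and 14.1% higher (21.0% and 13.6% of the brighter ones). The share of lower licensing genes at 6 and 8 d is thus near that of other genes of like brightness at those times. The median log2 change over the 10 genes was -0.11 and -0.15 after 6 and 8 d in LIF+serum and 0.19 after 6 d in 2i+LIF, beside -0.07, -0.04 and 0.02 over all genes.

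Between media, untreated cells in 2i+LIF had levels above both untreated LIF+serum arrays for 5 of the 10 genes and below both for 3. Over all genes 30.2% were above both and 44.3% below both, and over the brighter ones 46.2% and 27.0%, so these counts do not set the licensing genes apart. *Mcm6* was 0.78 and 0.79 higher (log2) than on the first and second of them, *Mcm5* 0.28 and 0.81, and *Mcm4* 0.52 and 0.27. *Cdc6* was 0.99 and 0.23 lower, *Mcm10* 0.29 and 0.26, and *Mcm2* 0.26 and 0.20. These are brightest probe sets, and others of a gene did not always lie on the same side. The second of *Mcm2* was 0.52 and 0.57 higher. That of *Mcm10* was 0.77 lower and 0.90 higher. The third of *Mcm7*, a gene counted above both, was 0.28 and 0.10 lower. No source used here says whether arrays of both media went through RMA as 1 batch, and medium and array set cannot be told apart.

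**Figure D3:**
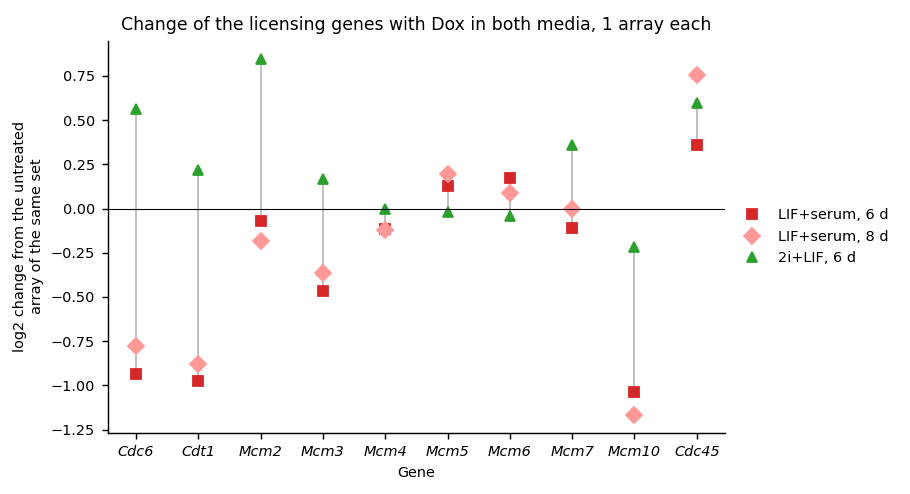
Log2 change (vertical axis) of the brightest probe set of each licensing gene from its own untreated array, at 6 d (red squares) and 8 d (pink diamonds) of Dox in LIF+serum and at 6 d in 2i+LIF (green triangles), 1 array each, with grey lines joining the 6 d values. *Cdc6* and *Cdt1* lie at -0.93 and -0.98 in LIF+serum and at 0.56 and 0.22 in 2i+LIF, and *Mcm2* is the highest in 2i+LIF at 0.85.

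Across the 7 Dox arrays of both media, the changes of *Mcm2*, *Mcm7* and *Cdc6* followed the mean of the 10 genes most closely (Pearson's r = 0.936, 0.922 and 0.921). Those of *Mcm10* (0.545), *Cdc45* (0.233) and *Mcm4* (0.161) did so less, and those of *Mcm5* (-0.231) and *Mcm6* (-0.300) ran the other way. The mean includes the member compared with it, and the 7 changes share 3 untreated arrays, so r is only a description. Among genes outside the set with a mean log2 level of at least 8, the 5 most like that mean were *Dap3*, *Dnmt3l*, *Rbbp4*, *Ehmt1* and *Ttf2*, with r from 0.983 to 0.991. *Dnmt3l*, a cofactor of de novo DNA methyltransferases, was 0.313-fold at 6 d in LIF+serum and 4.82-fold at 6 d in 2i+LIF. *Ttf2*, a transcription termination factor gene, was 0.569-fold and 1.31-fold, and *Ehmt1*, which encodes an H3K9 methyltransferase, 0.872-fold and 1.52-fold.

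Around licensing, genes of the origin recognition complex, on which the ring is loaded, did not pass in either direction. That was so for all 6, with a median slope of 0.01 per day beside -0.01 over all genes (0 at an unadjusted p under 0.05 in limma). *Orc1*, which is itself destroyed and remade with each cycle in many mammalian cells, was 1.00-fold at 8 d (adjusted p = 0.966). *Gmnn*, which encodes geminin, was 1.55-fold on the 1 d array, 1.00-fold on that of 4 d and 0.816-fold on that of 6 d (adjusted p = 0.785). The kinase gene *Cdc7* and its activator gene *Dbf4*, which trigger loaded rings, had adjusted p of 0.283 and 0.804.

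Of 16 genes of licensing inhibitors, kinases and MCM partners, 2 fell and 1 rose. *Ccne1*, which encodes the G1/S cyclin E1, had folds of 0.320, 0.230 and 0.409 on the 4, 6 and 8 d arrays (slope -0.26 with a standard error of 0.06, adjusted p = 0.0275 in limma). *Skp2*, a ubiquitin ligase subunit that marks CDT1 and p27 for destruction, had folds of 0.399 and 0.380 on those of 4 and 8 d (slope -0.24, adjusted p = 0.0144). *Ccne2*, of cyclin E2, stood at 6.12-fold and 6.07-fold on the same arrays (slope 0.39 with a standard error of 0.06, adjusted p = 0.00733). In 2i+LIF they stood at 1.30-fold, 1.58-fold and 5.54-fold, so that *Ccne2* alone of the 3 was on the same side of the untreated level in both media.

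Of 17 measured genes of firing factors and fork partners, 1 rose and none fell. It was *Gins3*, a subunit of the GINS complex that joins CDC45 and MCM2-7, with folds of 2.42 and 2.38 on the 6 and 8 d arrays (slope 0.14, adjusted p = 0.0333). Of 25 genes of replicative polymerases, the clamp and its loader, 3 fell and none rose. They were *Pold2*, of DNA polymerase delta (0.466-fold at 6 d, adjusted p = 0.038), *Rfc5*, of the clamp loader (0.468-fold at 8 d, adjusted p = 0.0195), and *Rnaseh2a*, of RNase H2 (0.510-fold at 8 d, adjusted p = 0.0221). *Pcna*, the clamp itself, stood at 0.714-fold and 0.843-fold on the 6 and 8 d arrays and did not pass (adjusted p = 0.446).

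Genes of nucleotide supply had the lowest median slope of the 8 lists plotted, at -0.13 per day, and 5 of 11 measured fell with none that rose. *Umps* and *Cad* of pyrimidine synthesis were 0.415-fold and 0.466-fold at 8 d, *Gart* of purine synthesis 0.447-fold, and *Dut*, the dUTPase, 0.510-fold (adjusted p from 0.0133 to 0.0293 in limma). In 2i+LIF the median log2 change of this list was -0.26, beside 0.19 for the licensing genes.

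Among 13 E2F and pocket protein regulators, 3 fell and 1 rose. *E2f8*, an E2F that represses its targets, was 0.248-fold at 8 d (slope -0.27, adjusted p = 0.0038), *E2f7*, of the same kind, 0.537-fold (adjusted p = 0.0454) and *Tfdp1*, a partner of the activating E2Fs, 0.371-fold (adjusted p = 0.0043). *Tfdp2*, a second partner, stood at 3.37-fold and 2.23-fold on the 4 and 8 d arrays (slope 0.23, adjusted p = 0.0214). *E2f1* did not pass, at 0.973-fold at 8 d (adjusted p = 0.936), and stood at 2.04-fold in 2i+LIF. Of 19 measured mitosis genes, 1 fell, *Aurkb* (0.525-fold at 8 d, adjusted p = 0.0368), and 1 rose, *Bub1* (2.06-fold, adjusted p = 0.0335). The proliferation marker *Mki67* stood at 4.54-fold on the 4 d array and at 0.834-fold on that of 8 d (adjusted p = 0.477). All these lists were chosen with earlier results of these data known, and only their counts are given.

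Some markers of other cells moved as well. Of 8 pluripotency genes 2 rose, *Klf4* at 2.99-fold and *Nanog* at 1.88-fold at 8 d, and none fell. Of 10 fibroblast genes 2 rose, *Pdgfrb* at 6.70-fold and *Acta2* at 16.8-fold at 8 d (1.61-fold at 6 d). Of 6 primitive endoderm genes 1 rose, *Pdgfra* at 6.05-fold, and of 6 trophectoderm genes 0 (2 higher at an unadjusted p under 0.05 in limma). Over all genes 5.75% were called higher. None of these lists had a gene called lower, but some of their genes went down. *Postn* of the fibroblast list was 0.721-fold at 8 d. *Sox7* of primitive endoderm was 0.631-fold (slope -0.16, unadjusted p = 0.021 in limma). The median log2 level of the trophectoderm list ran from 6.12 to 8.47 over the LIF+serum arrays, the highest at 8 d. Its median log2 change at 8 d was 1.06, beside 0.66 for primitive endoderm, 0.63 for fibroblasts and 0.36 for pluripotent cells. Over all genes that change was -0.04. The part of such cells in the values of the licensing genes was not tested.

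**Figure D4:**
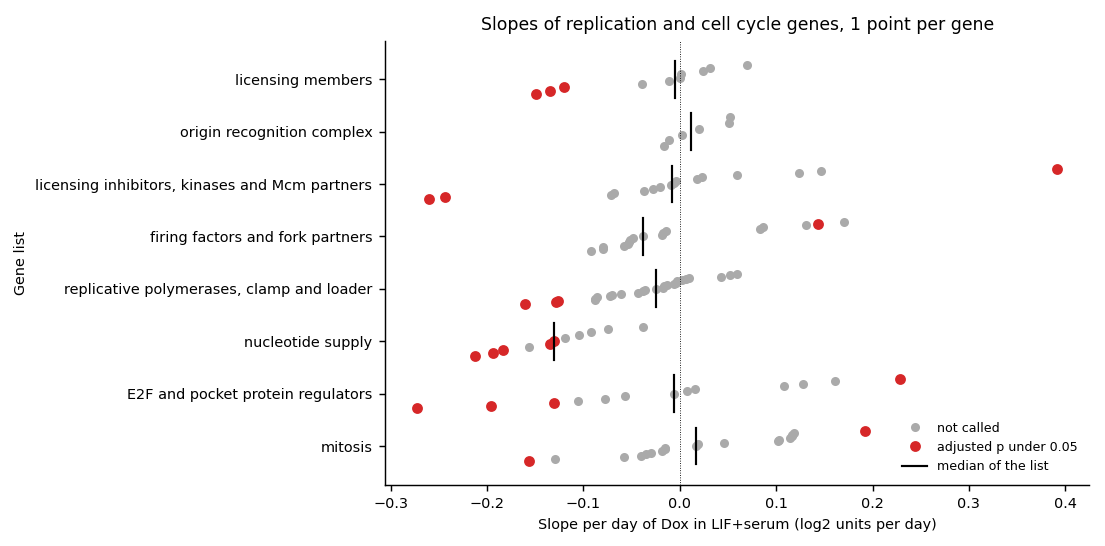
Slope per day of Dox in LIF+serum (horizontal axis, log2 units per day) of each gene of 8 lists (vertical axis), 1 point per gene from its brightest probe set, red for an adjusted p under 0.05 in limma and grey for the others, with a black bar at the median of each list. The median of nucleotide supply, at -0.13, lies lowest, and that of the licensing genes at -0.01, with *Cdc6*, *Cdt1* and *Mcm10* to its left.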

How the data were processed

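RNA of 10 samples was measured on Affymetrix arrays. The authors deposited log2 values, made in R by background subtraction and RMA (RMA and affy are the tools in the submitters' processing notes, with version numbers not given in any source used here). RMA can compress folds of dim probe sets. Groups, and which untreated array is the reference of which Dox times, came from the labels, and the medium of the 8 arrays not labelled 2i from the paper. Of 45101 probe sets 64 controls were left out. The platform annotation gave 1 symbol to 34945, several to 932 and none to 9160, and all 28 probe sets used kept their symbol when matched by Entrez ID to RefSeq. The number of arrays, not a read depth, limits the precision.

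The slope per day was fitted with limma 3.58.1 (R 4.3.3; 5 residual and 4.81 prior degrees of freedom), with Benjamini-Hochberg adjustment over all probe sets at 0.05. In simulated data of 45037 probe sets the fit found 2 of 100 with a slope of -0.1 and 87 of 100 with -0.25. It made 10 false calls among the unchanged ones. Single times were counted past 1.5-fold with no test. Python 3.11.15, pandas 2.3.3, numpy 2.4.6 and matplotlib 3.10.9 did the rest. The members and lists were chosen with earlier results of these data known. Named outside the members were up to 4 called genes per list with the largest slopes, 8 genes fixed by name and the 5 genes most like the members' mean. List genes with no probe set of 1 symbol were left out of the counts. Alternatives changed the set term, the coding of time, the normalization, the filter (a level of 6), the eBayes settings, the probe sets averaged, the arrays included, the untreated reference and the fold.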

Additional observations from a re-analysis of the deposited data

Results flagged for a closer look

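For 7 of the 10 licensing genes the changes after 6 d of Dox lay on opposite sides of the untreated level in LIF+serum and in 2i+LIF, with 1 array for each, so the difference was not tested. Opposite signs were also found for 46.5% of all genes. The change in 2i+LIF minus that in LIF+serum was 1.497 on the log2 scale for *Cdc6*, 1.19 for *Cdt1*, 0.92 for *Mcm2*, 0.63 for *Mcm3* and 0.47 for *Mcm7*. For *Mcm5* and *Mcm6*, which stayed close to the untreated level in both media, it was -0.14 and -0.21. *Mcm10*, which on its brightest probe set was below the untreated level in both, differed by 0.82 in the same way. Its dimmer probe sets were 1.058-fold and 1.047-fold the untreated level in 2i+LIF.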

How the results depend on the processing

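The calls of *Cdc6*, *Cdt1* and *Mcm10*, and their direction, were the same without the array set term, with log2(day + 1), after quantile normalization once more, among probe sets that reached 6, with trend and robust in eBayes and with the mean of a gene's probe sets. With Dox as treated against untreated 1 gene, *Cdc6*, was called lower (limma gave an adjusted p of 0.0775 for *Cdt1* and 0.0939 for *Mcm10*). Leaving out each array gave 0 to 3 genes called lower. A pair of settings chosen after seeing the data gave 0 (first set alone) and 1 (second set alone). A 2-fold threshold left 1 gene lower at 6 d and 1 at 8 d, *Mcm10*, in LIF+serum. The median log2 change was -0.29 at 6 d and -0.24 at 8 d against the other untreated array, -0.012, -0.0678 and 0.23 (2i+LIF) after quantile normalization, and -0.22, -0.25 and 0.0797 with the mean of a gene's probe sets. Slopes near 0 that did not pass changed sign without passing. That of *Mcm5* was -0.0133 without the set term and -0.0093 with the mean of its probe sets, and that of *Mcm7* 0.0113 after quantile normalization. Leaving out each array gave -0.008 to 0.0496 for *Mcm4*, -0.0181 to 0.0088 for *Mcm2*, -0.047 to 0.0152 for *Mcm3* and -0.0067 to 0.0214 for *Mcm7*. In the first set alone *Mcm2*, *Mcm3* and *Mcm7* had 0.0217, 0.0081 and 0.0147, and in the second *Mcm4* had -0.0158. No paired analysis was possible because the groups compared share fewer than 2 replicate numbers. The array set, each with its own untreated array, was a term of the fit instead. Slopes of the size of -0.1 were mostly missed in simulated data, so a slope of that size can fail to pass. Among brightest probe sets that did not pass, only the interval of *Mcm3* reaches that size, with a lower end of -0.10. The lower ends of *Mcm2*, *Mcm4*, *Mcm5*, *Mcm6*, *Mcm7* and *Cdc45* are -0.07, -0.06, -0.03, -0.03, -0.05 and 0.0001. Intervals of dimmer probe sets of *Mcm2* and *Mcm5* reach -0.11 and -0.15. Fewer probe sets were changed in the simulation than were called in the data, so the share found may differ between them.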
